A study of Mus musculus with 9 samples.

Results

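Ryr1, Cacna1s, Atp2a1, Atp2a2, Casq1, Casq2, Sln, Pvalb, Jph1 and Jsrp1 encode the machinery that releases calcium inside a skeletal muscle fibre and takes it up again. The 10 genes were chosen by symbol, and all 10 were found once among the 55536 genes of the deposited tables and passed the filter on low counts. The study measured muscle RNA of the outbred ICR stock, from males, by RNA sequencing in 9 libraries (total RNA). The first group is aged GW8510 (libraries 1, 3 and 4), mice of 18 months that received 2 mg/kg GW8510 i.p. daily over 14 days. GW8510 is a benzenesulfonamide that the series title links to p21-activated kinases, and it was dissolved in 0.5% sodium carboxymethylcellulose. The second group is aged vehicle (libraries 1, 3 and 4), vehicle-treated mice of 18 months. The third group is young vehicle (libraries 2, 3 and 4), vehicle-treated mice of 2 months. The labels name neither the muscle nor the animal behind each library, and the spread that the p-values rest on may therefore be technical.

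When a fibre is excited, the voltage sensor Cacna1s in the T-tubule opens the ryanodine receptor Ryr1 across the narrow junction of the triad, and calcium leaves the sarcoplasmic reticulum, where calsequestrins hold it. The SERCA pumps, Atp2a1 in fast fibres and Atp2a2 in slow fibres and heart, return it to the store. The small membrane protein sarcolipin (Sln) lowers pump activity, and parvalbumin (Pvalb) binds cytosolic calcium in fast fibres and so speeds relaxation.

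Promoter sequences from RefSeq (GRCm38.p6), 250 bases before to 50 bases after the annotated start, were matched by symbol for 6 of the 10 genes, that is, for all but Atp2a2, Sln, Jph1 and Jsrp1. The 3 windows below are shown because the log2 levels of Casq1 and Pvalb had the highest correlation over the 9 libraries of any pair of the 10 genes (Pearson r = 0.974). Casq2 is the paralog of Casq1, and its r with Casq1 was 0.392. The windows lie at chr1:172219846-172220145 on the minus strand (Casq1), chr15:78206351-78206650 on the minus strand (Pvalb, the first of 2 windows) and chr3:102086165-102086464 on the plus strand (Casq2). Capitals mark matches, read on both strands, to the E-box CANNTG, which myogenic regulatory factors such as MyoD bind, or to the MEF2 motif of muscle genes.
Casq1: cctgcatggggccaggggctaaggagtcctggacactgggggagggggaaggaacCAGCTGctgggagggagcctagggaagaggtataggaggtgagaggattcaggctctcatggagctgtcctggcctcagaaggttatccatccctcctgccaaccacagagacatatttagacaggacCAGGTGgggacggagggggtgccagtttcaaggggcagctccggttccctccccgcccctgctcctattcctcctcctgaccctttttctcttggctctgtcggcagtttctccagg
Pvalb: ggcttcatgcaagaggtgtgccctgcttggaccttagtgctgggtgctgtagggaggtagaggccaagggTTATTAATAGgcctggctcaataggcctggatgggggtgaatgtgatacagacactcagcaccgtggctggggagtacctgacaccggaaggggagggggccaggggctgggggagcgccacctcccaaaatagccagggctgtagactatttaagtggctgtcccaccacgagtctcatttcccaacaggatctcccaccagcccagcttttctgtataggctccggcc
Casq2: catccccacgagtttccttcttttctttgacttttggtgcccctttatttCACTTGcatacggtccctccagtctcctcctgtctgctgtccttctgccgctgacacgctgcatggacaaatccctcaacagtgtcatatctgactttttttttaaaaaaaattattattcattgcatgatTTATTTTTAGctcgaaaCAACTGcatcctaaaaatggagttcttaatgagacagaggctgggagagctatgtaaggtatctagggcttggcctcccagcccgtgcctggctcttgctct
The Casq1 window held 2 E-boxes, starting at -195 and -67 relative to the start, and no MEF2 match. The Pvalb window shown held a single MEF2 match at -180 and no E-box, and the Pvalb window not shown held E-boxes at -111 and 18 and no MEF2 match. The Casq2 window held E-boxes at -200 and -52 with a MEF2 match at -69. No match overlapped another. An E-box was present in 72.3% and a MEF2 match in 3.16% of 32544 RefSeq promoter windows of the same 300 bases. The windows of Cacna1s, Atp2a1 and Ryr1 held 2, 1 and 0 E-boxes, and none of them held a MEF2 match. These letters describe the windows only, and no binding was measured.

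The tissue label was checked first. The fast myosin heavy chain Myh4 had 9506 to 38282 CPM (counts scaled to library size with TMM factors), and the slow isoform Myh7 had 0.95 to 23.0 CPM. Of 6 heart markers, Myl7 had no count in any library, and their summed level was 0.55 to 7.39 CPM, so the defining genes of heart muscle were at or near 0 in these libraries. Library totals ran from 21718930 to 27437937 counts. Aged vehicle library 4 stood apart, with a mean correlation of 0.942 with its own group against 0.956 and 0.958 for the other aged vehicle libraries. Compared with the mean of aged vehicle libraries 1 and 3, its level was 5.01-fold lower for Pvalb, 4.44-fold lower for Casq1, 3.24-fold lower for Casq2 and 1.51-fold lower for Jph1, and 2.85-fold higher for Sln. It held the lowest level of all 9 libraries for 5 of the 10 genes (Casq1, Casq2, Pvalb, Jph1 and Cacna1s). For these 5 genes and Sln, the log2 fold change of aged vehicle over young vehicle is given with and without this library. Single genes of the wider list below are given with it only.

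Levels between genes were compared on the authors' deposited TPM values, which are scaled by length. Pvalb stood first with a mean of 15432 ± 6512 TPM (SD over 9 libraries), the 17th highest mean of all genes, and Atp2a1 followed with 8936 ± 1334 TPM. Casq1 had 2075 ± 1005 TPM, Jsrp1 651 ± 112 TPM, Ryr1 362 ± 63.3 TPM, Cacna1s 316 ± 43.4 TPM and Jph1 99.3 ± 20.9 TPM. The slow and cardiac paralogs stood far lower, Atp2a2 at 12.0 ± 2.55 TPM and Casq2 at 5.79 ± 1.87 TPM, with Sln last at 4.04 ± 3.76 TPM. Neighbours in this order whose ranges over the 9 libraries overlapped were Pvalb and Atp2a1, Casq1 and Jsrp1, Ryr1 and Cacna1s, Atp2a2 and Casq2, and Casq2 and Sln. Compared within each library, the first-named gene was higher in 8, 8, 7, 9 and 7 of 9 libraries, in that order. The library with less Pvalb than Atp2a1 was aged vehicle 4, which also had less Casq1 than Jsrp1. The 10 genes together took 4.36%, 3.13% and 4.21% of all counts in the aged GW8510 libraries, 4.67%, 4.16% and 3.08% in the aged vehicle libraries, and 5.16%, 5.48% and 5.05% in the young vehicle libraries. Every young library lay above every aged one in this share of raw counts, of which Atp2a1 alone made 2.03% to 3.22% of all counts. The share leaves out the TMM factors, of which young vehicle library 2 had the highest (1.11). In CPM, which uses them, the 10 genes together were no higher in young vehicle library 2 than in aged vehicle library 1. The gap between young and aged libraries was thus not present on that scale.

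**Figure D1:**
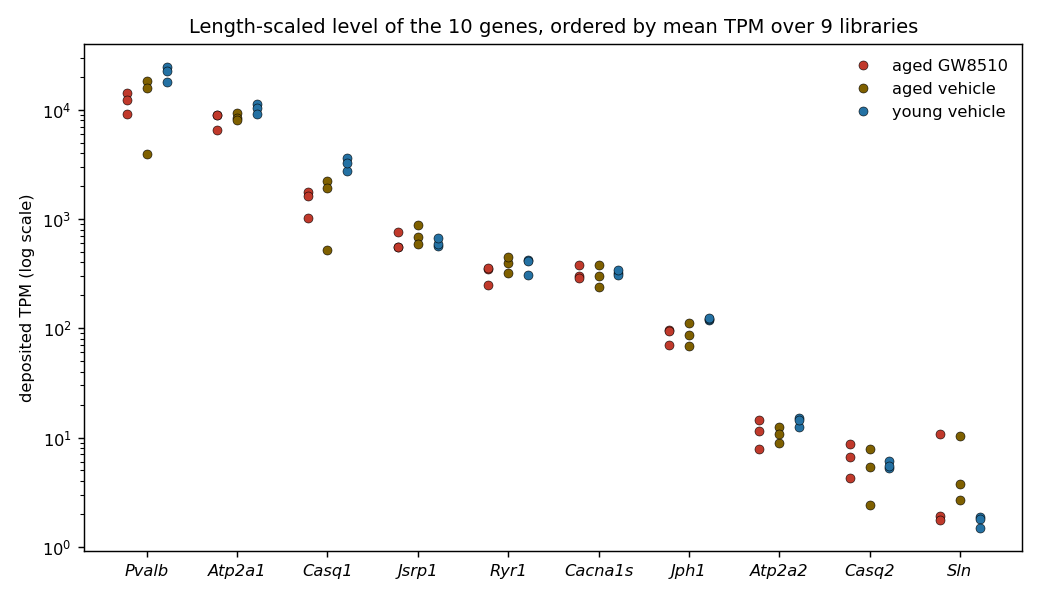
Deposited TPM (log axis) of the 10 genes, ordered by the mean over 9 libraries, with 1 point per library and the groups side by side. Pvalb and Atp2a1 lie highest, Atp2a2, Casq2 and Sln lowest at no more than 15.1 TPM, and the low aged vehicle point of Pvalb and Casq1 is library 4.

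No gene of the 10 passed the test in any of the 3 comparisons (edgeR quasi-likelihood F test, Benjamini-Hochberg adjusted p under 0.05 over all 14384 genes tested), nor did any pass in DESeq2 or limma. The background was 1.22% of all genes for aged vehicle over young vehicle, 0.751% for aged GW8510 over young vehicle and 0.0% for aged GW8510 over aged vehicle, where 0 of 14384 genes passed in edgeR, 647 had an unadjusted p under 0.05 and DESeq2 called 11. For DESeq2 the background was 6.77%, 6.05% and 0.0765% in the same order. At an unadjusted p under 0.05 stood only Sln, in both comparisons with young vehicle, beside 19.2% of all genes for aged vehicle, 16.7% for aged GW8510 and 4.5% for aged GW8510 over aged vehicle. The 3 comparisons share libraries and are not independent. The largest differences from young vehicle were a lower mean of Casq1, a lower mean of Pvalb and a higher mean of Sln, while Cacna1s, Ryr1 and Atp2a1 means differed by at most 1.19-fold between any groups. On the CPM scale, 2 genes lay higher in aged vehicle over young vehicle (Sln and Jsrp1) and 2 lower (Casq1 and Atp2a1) without overlap between libraries, beside 12.7% and 13.5% of all genes. In aged GW8510 over young vehicle, Sln lay higher and Casq1 lower without overlap, beside 12.9% and 12.8%, and in aged GW8510 over aged vehicle the libraries of all 10 genes overlapped, beside 3.89% higher and 3.33% lower. The median log2 fold change of the 10 genes was -0.22 in aged vehicle over young vehicle, -0.12 in aged GW8510 over young vehicle and 0.03 in aged GW8510 over aged vehicle, beside 0.01 for all genes in each comparison.

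**Figure D2:**
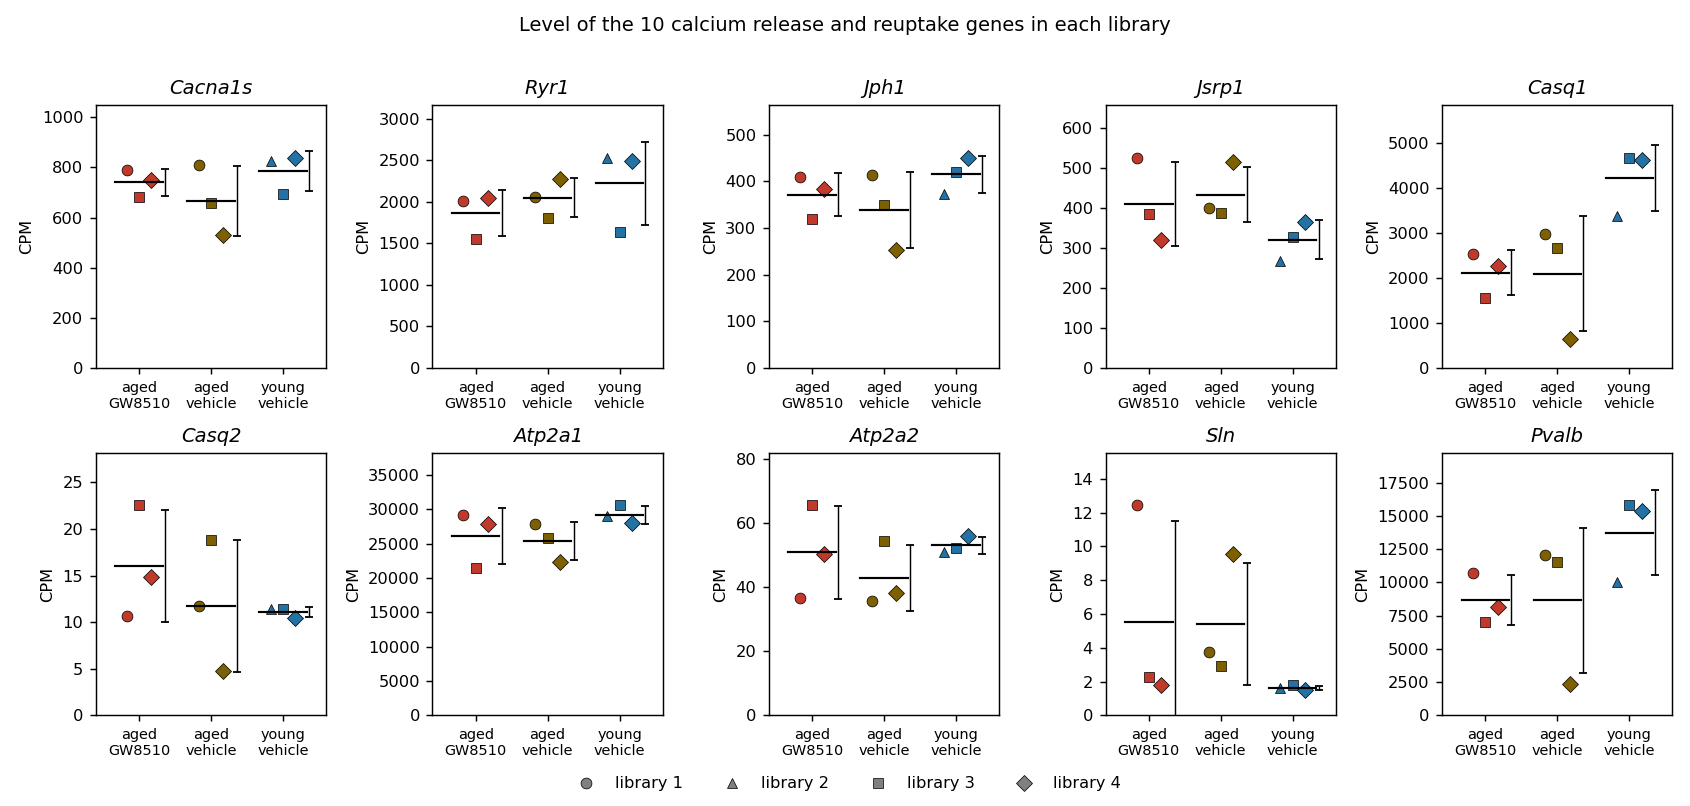
CPM of the 10 genes in each library (linear axes from 0). Points are libraries, marked by number, and groups run from aged GW8510 and aged vehicle to young vehicle, with the mean as a line and the SD (n = 3) as a bar beside it, cut at 0 for Sln. Casq1 is the gene in which all 6 aged points lie below the 3 young ones, the nearest being aged vehicle library 1 (2977 CPM) and young vehicle library 2 (3364 CPM). Aged vehicle library 4 lies lowest in the Casq1, Casq2, Pvalb, Jph1 and Cacna1s panels.

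Cacna1s, the pore subunit of the voltage sensor, lies at chr1:136052750-136119822 on the plus strand (GRCm38, GENCODE M21, as for the other genes). It had 788, 683 and 751 CPM in aged GW8510 libraries 1, 3 and 4, 809, 657 and 532 CPM in aged vehicle libraries 1, 3 and 4, and 824, 694 and 838 CPM in young vehicle libraries 2, 3 and 4. The groups overlapped, and aged vehicle library 4 was lowest. In log2 terms the fold change was -0.24 ± 0.19 (SE) for aged vehicle over young vehicle (edgeR adjusted p = 0.499) and 0.15 ± 0.19 for aged GW8510 over aged vehicle (95% interval -0.26 to 0.57, adjusted p = 0.951). Leaving out aged vehicle library 4 gave -0.098 for the first of these and 0.0022 for the second.

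Ryr1 (chr7:29003344-29125179, minus strand), the calcium release channel itself, had 2004, 1551 and 2041 CPM in the aged GW8510 libraries, 2060.4, 1811 and 2279 CPM in the aged vehicle libraries, and 2530.1, 1639 and 2493 CPM in the young vehicle libraries. Library 3 was lowest in every group, and all groups overlapped. Its log2 fold change was -0.12 ± 0.22 for aged vehicle over young vehicle (edgeR adjusted p = 0.807), -0.25 ± 0.22 for aged GW8510 over young vehicle (0.597) and -0.14 ± 0.22 for aged GW8510 over aged vehicle (0.960).

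Jph1 (chr1:16964560-17097889, minus strand), a junctophilin that ties the T-tubule to the sarcoplasmic reticulum, had 409, 320.3 and 385 CPM in the aged GW8510 libraries, 414, 349 and 252 CPM in the aged vehicle libraries, and 374, 421 and 451 CPM in the young vehicle libraries. On this scale the groups overlapped, with aged vehicle library 4 lowest. On the deposited TPM scale the young libraries stood apart from both aged groups, which overlapped each other: the aged GW8510 libraries had 70.7 to 96.5 TPM, the aged vehicle libraries 69.4 to 111 TPM and the young vehicle libraries 119.5 to 123 TPM. The share of all genes that stand apart in TPM was not computed, for Jph1 or for Casq1, Atp2a1, Atp2a2 and Pvalb below. Over all genes, limma on log2(TPM + 1) gave a median log2 fold change of -0.141 for aged GW8510 over young vehicle. That median was -0.0402 for aged vehicle over young vehicle. In CPM, the Jph1 log2 fold change was -0.29 ± 0.20 for aged vehicle over young vehicle (edgeR adjusted p = 0.438) and -0.16 ± 0.20 for aged GW8510 over young vehicle (0.728). The first of these was -0.12 without aged vehicle library 4.

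Jsrp1 (chr10:80808496-80813498, minus strand) encodes JP-45, a junctional protein that binds the voltage sensor and calsequestrin. It had 524, 383 and 319.55 CPM in the aged GW8510 libraries, 399, 387 and 513 CPM in the aged vehicle libraries, and 268, 327 and 364 CPM in the young vehicle libraries. All aged vehicle libraries lay above all young ones, whereas aged GW8510 library 4 lay within the young range. On the deposited TPM scale all groups overlapped, with 555 to 754 TPM in aged GW8510, 592 to 884 TPM in aged vehicle and 566 to 675 TPM in young vehicle, and limma on log2(TPM + 1) gave a log2 fold change of 0.23 for aged vehicle over young vehicle (adjusted p = 0.596). In CPM, Jsrp1 had a log2 fold change of 0.44 ± 0.22 for aged vehicle over young vehicle (edgeR adjusted p = 0.304), 0.36 ± 0.22 for aged GW8510 over young vehicle (adjusted p = 0.446) and -0.08 ± 0.22 for aged GW8510 over aged vehicle (adjusted p = 0.982).

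Casq1 (chr1:172209894-172219868, minus strand), the calsequestrin of fast fibres and the main calcium-binding protein of the store, separated the young from the aged libraries. It had 2527, 1553 and 2267 CPM in the aged GW8510 libraries, 2977, 2665 and 636 CPM in the aged vehicle libraries, and 3364, 4661.5 and 4605 CPM in the young vehicle libraries. Every aged library lay below every young one, on the TPM scale as well, where the highest aged library had 2244 TPM and the lowest young one 2747 TPM. Group means were 2116 ± 504 CPM for aged GW8510, 2092 ± 1271 CPM for aged vehicle and 4210.2 ± 733 CPM for young vehicle (SD, n = 3 each).

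The Casq1 log2 fold change was -1.01 ± 0.47 for aged vehicle over young vehicle (95% interval -2.06 to 0.04, edgeR adjusted p = 0.278) and -0.99 ± 0.47 for aged GW8510 over young vehicle (-2.04 to 0.06, adjusted p = 0.325). In aged GW8510 over aged vehicle it was 0.02 ± 0.47 (-1.02 to 1.06, adjusted p = 1.0). Without aged vehicle library 4, the value was -0.58 for aged vehicle over young vehicle (edgeR adjusted p = 0.321), -0.43 for aged GW8510 over aged vehicle (1.0) and -1.01 for aged GW8510 over young vehicle, which then passed (adjusted p = 0.0373, beside 4.0% of 14842 genes). That library is not part of aged GW8510 over young vehicle and enters it through the spread shared by all 9 libraries. With only the 6 libraries compared, Casq1 had -0.99 ± 0.23 there (edgeR adjusted p = 0.0596). In the authors' deposited table, Casq1 had a log2 fold change of -0.99 and an adjusted p of 0.000269 for aged GW8510 over young vehicle but was not marked as changed, and for aged vehicle over young vehicle the authors' deposited table gave -1.0 and an adjusted p of 0.216.

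In bulk tissue, fewer fibres of a kind and less RNA per fibre cannot be told apart. The summed level of 9 fast fibre markers was 80199 to 103163 CPM in the aged GW8510 libraries, 80753 to 110483 CPM in the aged vehicle libraries and 97871 to 133199 CPM in the young vehicle libraries, and 0 of the 9 passed in any comparison. Per 1000 CPM of these markers, Casq1 had 24.5, 19.4 and 25.7 CPM in the aged GW8510 libraries, 26.9, 27.5 and 7.87 CPM in the aged vehicle libraries, and 34.4, 44.1 and 34.6 CPM in the young vehicle libraries. Every aged library thus lay below every young one on this scale too, and the share of all genes that do so was not computed. Atp2a1 had 283, 268 and 315 CPM on it in aged GW8510, 252, 267 and 277 CPM in aged vehicle, and 297, 289 and 210 CPM in young vehicle, where the groups overlapped. Whether fibre number or RNA per fibre plays a part was not tested. The summed level of 4 fibroblast markers also separated the ages, at 158 to 368 CPM in the aged GW8510 libraries, 60.3 to 305 CPM in the aged vehicle libraries and 455 to 1026 CPM in the young vehicle libraries, and all 4 had a negative log2 fold change against young vehicle. None of the 4 passed in the 3 comparisons of single groups, but for both aged groups over young vehicle 1 of the 4 fell (Col1a1, a fibrillar collagen chain, log2 fold change -4.16, edgeR adjusted p = 0.0153). Their part in the Casq1 values was not tested.

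Casq2 (chr3:102086415-102146514, plus strand), the calsequestrin of slow fibres and heart, had 10.7, 22.5 and 14.8 CPM in the aged GW8510 libraries, 11.7, 18.9 and 4.72 CPM in the aged vehicle libraries, and 11.4, 11.4 and 10.5 CPM in the young vehicle libraries. The young libraries lay close together, and the aged ones lay on both sides of them. The log2 fold change was 0.08 ± 0.42 for aged vehicle over young vehicle (edgeR adjusted p = 0.932), 0.53 ± 0.42 for aged GW8510 over young vehicle (0.562) and 0.44 ± 0.42 for aged GW8510 over aged vehicle (0.942). Without aged vehicle library 4 the first of these was 0.46 and the last 0.06, and none passed.

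The libraries with the most Casq2, aged GW8510 3 and aged vehicle 3, also had the highest summed level of 6 slow fibre markers. That sum was 27.2, 215 and 21.2 CPM in the aged GW8510 libraries, 37.6, 74.2 and 10.2 CPM in the aged vehicle libraries, and 18.2, 13.2 and 47.8 CPM in the young vehicle libraries. All 6 slow fibre markers had a positive log2 fold change in each of the 3 comparisons, none of the 6 passed, and none was at 0 in any library. Their part in the Casq2 and Atp2a2 values was not tested.

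Atp2a1 (chr7:126445858-126463108, minus strand), the fast fibre SERCA pump, had 29194, 21515 and 27832 CPM in the aged GW8510 libraries, 27854, 25874 and 22369.8 CPM in the aged vehicle libraries, and 29076.5, 30609 and 28027 CPM in the young vehicle libraries. In CPM all aged vehicle libraries lay below the young ones by a small margin, and aged GW8510 library 1 lay within the young range. On the deposited TPM scale this turned round: the aged GW8510 libraries, at 6494 to 8918 TPM, all lay below the young vehicle ones, at 9105 to 11166 TPM, and the aged vehicle libraries, at 7987 to 9266 TPM, overlapped them. The log2 fold change was -0.20 ± 0.22 for aged vehicle over young vehicle (95% interval -0.71 to 0.30, edgeR adjusted p = 0.641), -0.16 ± 0.22 for aged GW8510 over young vehicle (-0.66 to 0.34, 0.759) and 0.05 ± 0.22 for aged GW8510 over aged vehicle (-0.45 to 0.55, 0.990).

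Atp2a2 (chr5:122453513-122502225, minus strand), the SERCA pump of slow fibres and heart, had 36.6, 65.5 and 50.5 CPM in the aged GW8510 libraries, 35.6, 54.5 and 38.2 CPM in the aged vehicle libraries, and 50.9, 52.3 and 56.1 CPM in the young vehicle libraries. In both aged groups library 3 was highest, and all groups overlapped. On the deposited TPM scale the aged vehicle libraries ended at 12.56 TPM, just below the lowest young vehicle library at 12.57 TPM. Its log2 fold change was -0.31 ± 0.23 for aged vehicle over young vehicle (edgeR adjusted p = 0.470), -0.06 ± 0.23 for aged GW8510 over young vehicle (0.917) and 0.25 ± 0.23 for aged GW8510 over aged vehicle (0.938).

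Sln (chr9:53850164-53854560, plus strand), the pump inhibitor sarcolipin, was the lowest of the 10 genes and the most uneven among aged libraries. It had 274, 51 and 41 counts, or 12.4, 2.26 and 1.83 CPM, in the aged GW8510 libraries, and 104, 72 and 221 counts, or 3.78, 2.94 and 9.57 CPM, in the aged vehicle libraries. The young vehicle libraries had 47, 42 and 39 counts, or 1.61, 1.78 and 1.52 CPM. Aged GW8510 library 1 and aged vehicle library 4 were far above the rest, while aged GW8510 libraries 3 and 4 lay just above the young range in CPM and within or just above it in TPM (1.90 and 1.77 TPM, against 1.49 to 1.89 TPM in young vehicle).

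The Sln log2 fold change was 1.73 ± 0.72 for aged vehicle over young vehicle (95% interval 0.12 to 3.34, edgeR adjusted p = 0.235) and 1.75 ± 0.72 for aged GW8510 over young vehicle (0.13 to 3.36, adjusted p = 0.261). For aged GW8510 over aged vehicle it was 0.02 ± 0.69 (-1.51 to 1.55, adjusted p = 1.0). Without aged vehicle library 4 the value for aged vehicle over young vehicle was 1.04 (edgeR adjusted p = 0.543). Without aged GW8510 library 1 the value for aged GW8510 over young vehicle was 0.32 (adjusted p = 0.840), so that single libraries carried much of each difference. The authors' deposited table marks Sln as changed for aged vehicle over young vehicle (1.75, adjusted p = 0.0106), among the 1.18% of 55536 genes marked there. It is also marked in the authors' deposited table for aged GW8510 over young vehicle (1.75, adjusted p = 0.0397), among 1.31% of genes. None of the 10 is marked for aged GW8510 over aged vehicle in the authors' deposited table, where 0.0108% of genes are.

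Pvalb (chr15:78191114-78206400, minus strand) had 10738, 7059 and 8173.5 CPM in the aged GW8510 libraries, 12065, 11499 and 2352 CPM in the aged vehicle libraries, and 10041, 15791 and 15333 CPM in the young vehicle libraries. In CPM the groups overlapped through young vehicle library 2, which lay below 2 aged vehicle libraries and aged GW8510 library 1. On the deposited TPM scale the aged GW8510 libraries, at 9052 to 14154 TPM, all lay below the young vehicle ones, at 18106 to 24586 TPM, while the aged vehicle libraries, at 3900.3 to 18188 TPM, overlapped them. In CPM, its log2 fold change was -0.67 ± 0.50 for aged vehicle over young vehicle (edgeR adjusted p = 0.486) and -0.66 ± 0.50 for aged GW8510 over young vehicle (0.540). In aged GW8510 over aged vehicle it was 0.00 ± 0.50 (95% interval -1.12 to 1.12, adjusted p = 1.0). In the authors' deposited table, Pvalb had a log2 fold change of -0.67 and an adjusted p of 0.0425 for aged GW8510 over young vehicle but was not marked as changed. Without aged vehicle library 4 the edgeR values were -0.22 for aged vehicle over young vehicle (edgeR adjusted p = 0.740), -0.68 for aged GW8510 over young vehicle (0.129) and -0.46 for aged GW8510 over aged vehicle (1.0). With only the 6 libraries compared, Pvalb had -0.66 ± 0.25 for aged GW8510 over young vehicle (edgeR adjusted p = 0.191). Per 1000 CPM of fast fibre markers Pvalb had 104, 88.0 and 92.6 CPM in aged GW8510, 109, 119 and 29.1 CPM in aged vehicle, and 103, 149 and 115 CPM in young vehicle, where the groups again overlapped.

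**Figure D3:**
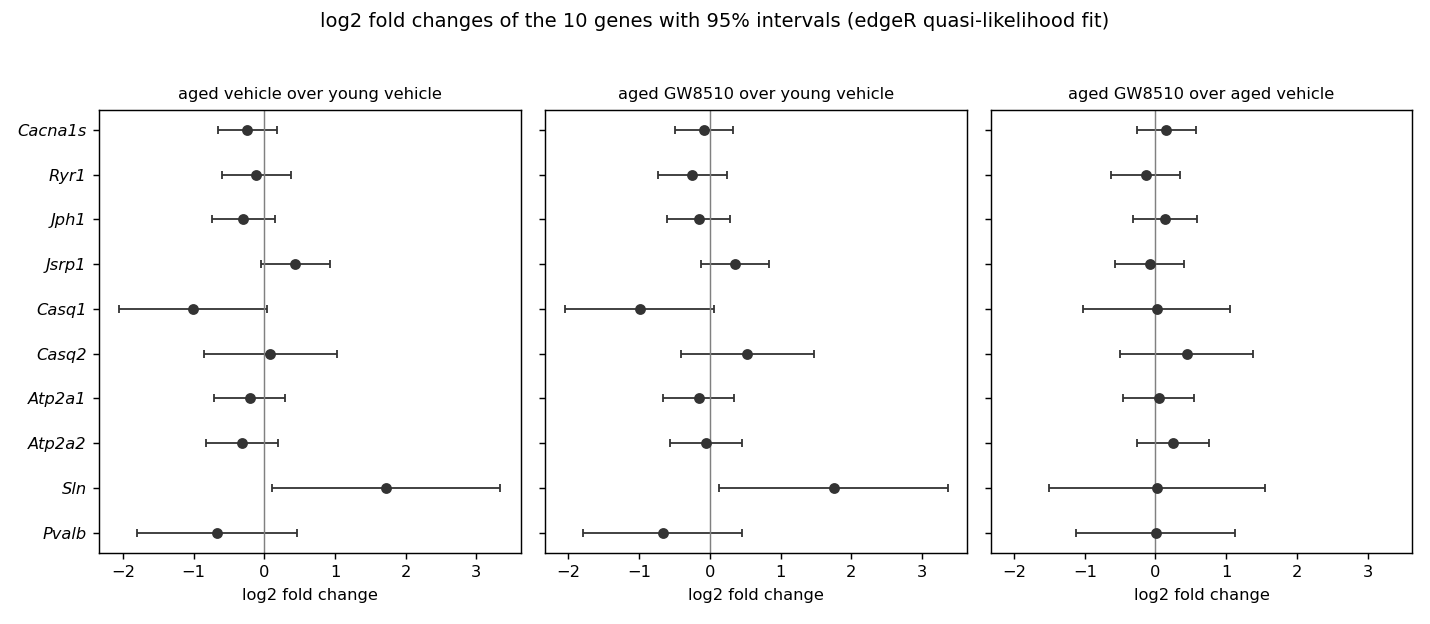
log2 fold changes of the 10 genes with 95% intervals from the edgeR fit, 1 panel per comparison, with positive values higher in the first-named group. The Sln intervals against young vehicle, 0.12 to 3.34 and 0.13 to 3.36, are the ones that leave out 0, the Casq1 intervals end at 0.04 and 0.06, and every interval in the panel of aged GW8510 over aged vehicle spans 0.

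For GW8510 against vehicle in aged mice, the 10 fold changes ran from -0.14 (Ryr1) to 0.44 (Casq2) on the log2 scale, 8 of them above 0, with no adjusted p below 0.938. The intervals are wide for Sln (-1.51 to 1.55), Pvalb (-1.12 to 1.12) and Casq1 (-1.02 to 1.06), so differences of up to about that size in either direction are within reach of these data. They are narrower for Cacna1s (-0.26 to 0.57) and Jph1 (-0.31 to 0.58). Without aged vehicle library 4 the signs of Casq1, Pvalb, Jph1, Atp2a1 and Jsrp1 turned, and again none passed.

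Taken as 1 group of 6 libraries, a contrast added after the values were seen, the aged libraries averaged 2104 ± 865 CPM of Casq1 against 4210.2 ± 733 CPM in young vehicle. The log2 fold change was -1.0 ± 0.39 (95% interval -1.88 to -0.13, edgeR adjusted p = 0.182). That of Sln was 1.74 ± 0.66 (adjusted p = 0.172), and 0 of the 10 genes passed, beside 3.66% of all genes, while Casq1 and Sln had an unadjusted p under 0.05, beside 21.6%. Without aged vehicle library 4, Casq1 passed at -0.79 (edgeR adjusted p = 0.0449, beside 5.22%), and in DESeq2 Sln passed at 1.74 (adjusted p = 0.0351, beside 9.74%). In CPM, Casq1 was lower and Sln higher in 6 of 6 aged libraries than in any young one, beside 7.9% and 6.61% of all genes. In TPM this held for Casq1 but not for Sln. For Sln, aged GW8510 library 4 (41 counts, 1.77 TPM) lay within the young range of 1.49 to 1.89 TPM.

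Ratios of counts within a library do not depend on the scaling between libraries. The ratio of Casq1 to Casq2, the fast over the slow calsequestrin, was 237, 68.9 and 153 in the aged GW8510 libraries, 254, 141 and 135 in the aged vehicle libraries, and 295, 409.8 and 439 in the young vehicle libraries. All 6 aged libraries lay below the 3 young ones. The difference in mean log2 ratio was -1.15 for aged vehicle minus young vehicle and -1.47 for aged GW8510 minus young vehicle, each with the smallest p that 3 against 3 libraries allow (p = 0.1, exact two-sided permutation test). It was -1.31 for both aged groups minus young vehicle (exact permutation p = 0.0238, 0.143 after Benjamini-Hochberg adjustment over 12 ratio tests). That p is the smallest that 6 against 3 libraries allow, and the grouping was added after the values were seen, so it says no more than the lack of overlap. For aged GW8510 minus aged vehicle the difference was -0.32 (exact permutation p = 0.8).

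The pumps' own ratio did not show such a gap. Atp2a1 counts were 797, 328 and 551 times those of Atp2a2 in the aged GW8510 libraries, 783, 475 and 586 times in the aged vehicle libraries, and 572, 586 and 499.6 times in the young vehicle libraries. The young values lay inside the aged range, and the log2 differences were 0.13, -0.07 and -0.20 for aged vehicle minus young vehicle, aged GW8510 minus young vehicle and aged GW8510 minus aged vehicle (exact permutation p = 0.7, 0.8 and 0.7). Pump counts per Sln count were 2349.9, 9557 and 15276 in the aged GW8510 libraries, 7373, 8807 and 2341 in the aged vehicle libraries, and 18122, 17262 and 18457 in the young vehicle libraries. Thus every aged library had more Sln per pump count than every young one. This ratio holds the same Sln counts as above and is not separate evidence. Its aged library nearest to the young ones, aged GW8510 4, had 41 Sln counts, against 47, 42 and 39 in young vehicle. The difference in mean log2 ratio of Sln to pumps was 1.75 for aged vehicle minus young vehicle and 1.36 for aged GW8510 minus young vehicle (exact permutation p = 0.1 each), and -0.39 for aged GW8510 minus aged vehicle (exact permutation p = 0.5). For both aged groups minus young vehicle it was 1.55 (exact permutation p = 0.0238, adjusted 0.143).

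**Figure D4:**
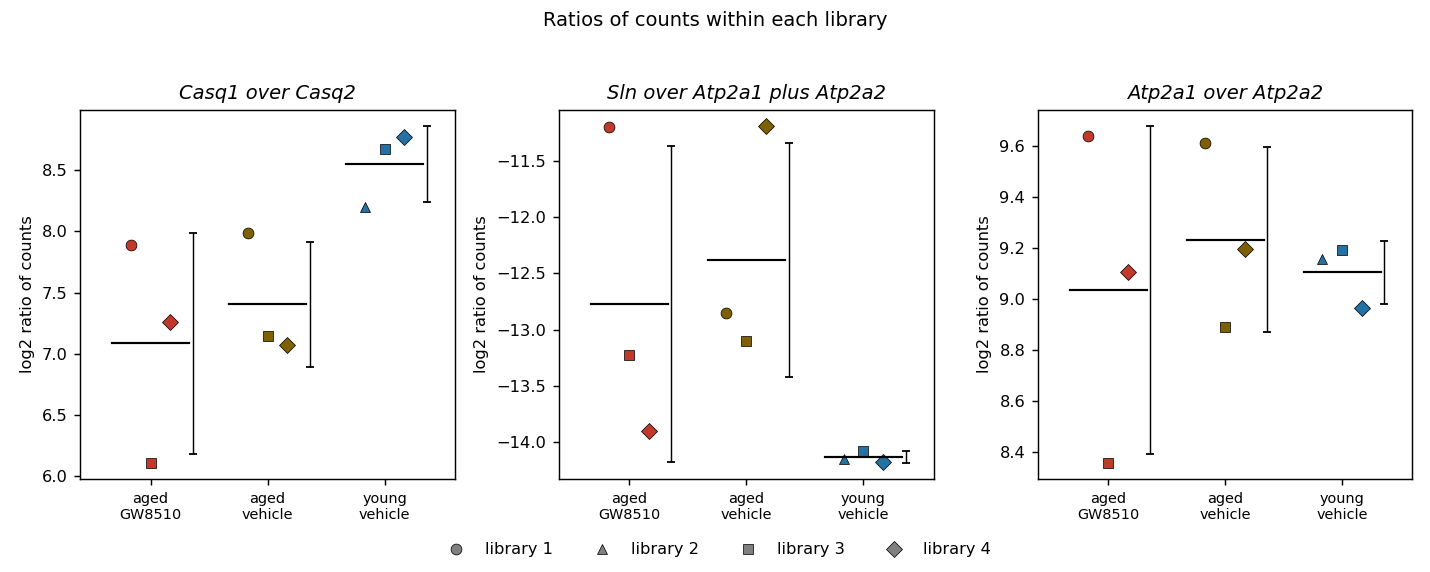
log2 ratios of counts within each library for the calsequestrins, for sarcolipin over both pumps and for the pumps, with the mean as a line and the SD (n = 3) as a bar per group (axes do not start at 0). In the first panel all aged points lie below the young ones, in the second all lie above them, and in the third the young points lie inside the aged range.

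A wider list of 64 calcium-handling genes was chosen by role, of which 62 were in the files and 59 were tested (Ryr2, Ryr3 and Calb1 fell below the filter). In each of the 3 comparisons, 0 rose and 0 fell in edgeR, and DESeq2 called 5 of them for aged vehicle over young vehicle, 6 for aged GW8510 over young vehicle and 0 for aged GW8510 over aged vehicle, beside 6.77%, 6.05% and 0.0765% of all genes. At an unadjusted p under 0.05 stood 16, 15 and 3 genes of the 59, beside 19.2%, 16.7% and 4.5% of all genes, and the list's median log2 fold change was -0.02, -0.12 and -0.02, beside 0.01 for all genes. The 6 genes of mitochondrial calcium uptake all had a positive log2 fold change in both comparisons with young vehicle, with a median of 0.36 for aged vehicle and 0.44 for aged GW8510, and none passed.

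Micu2, a regulatory subunit of the mitochondrial uniporter, had 43.8, 40.3 and 39.0 CPM in the aged GW8510 libraries, 46.5, 50.1 and 67.6 CPM in the aged vehicle libraries, and 27.7, 31.9 and 34.0 CPM in the young vehicle libraries. The 3 groups did not overlap, with aged vehicle highest. Of all genes, 12.7% lay higher without overlap in aged vehicle than in young vehicle and 12.9% in aged GW8510 than in young vehicle. In aged GW8510, 3.33% lay lower than in aged vehicle. The share apart in all 3 groups was not computed, and Micu2 is named for its small p. The Micu2 log2 fold change was 0.81 ± 0.17 for aged vehicle over young vehicle (edgeR adjusted p = 0.0551) and -0.41 ± 0.17 for aged GW8510 over aged vehicle (adjusted p = 0.934). Both values share the aged vehicle mean, which holds the high value of aged vehicle library 4 (67.6 CPM), and are given with it only. All aged GW8510 libraries lay above all young ones.

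Asph, whose locus also encodes the triad protein junctin, had 187, 140.4 and 172 CPM in the aged GW8510 libraries, 240.1, 191 and 209 CPM in the aged vehicle libraries, and 259, 256 and 317 CPM in the young vehicle libraries. The groups did not overlap here either, with aged GW8510 lowest and young vehicle highest, and Asph too is named for its small p. Of all genes, 13.5% lay lower without overlap in aged vehicle than in young vehicle. Such genes made 12.8% for aged GW8510 below young vehicle and 3.33% for aged GW8510 below aged vehicle. The log2 fold change was -0.74 ± 0.17 for aged GW8510 over young vehicle (edgeR adjusted p = 0.0725) and -0.36 ± 0.17 for aged GW8510 over aged vehicle (adjusted p = 0.934).

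The other genes with the smallest p for aged vehicle over young vehicle were the kinase Camk2b (log2 fold change 0.58, edgeR adjusted p = 0.0980), the voltage sensor subunit Cacng1 (1.10, 0.108) and the plasma membrane pumps Atp2b2 (2.35, 0.132) and Atp2b3 (-0.66, 0.140). Cacng1 had 382, 224 and 246 CPM in the aged GW8510 libraries, 359, 330.5 and 681 CPM in the aged vehicle libraries, and 189.5, 207 and 244 CPM in the young vehicle libraries. Its highest value was again in aged vehicle library 4. For aged GW8510 over young vehicle they were the store-operated channel Orai2 (-2.04, edgeR adjusted p = 0.112, at most 1.64 CPM), the sodium-calcium exchanger Slc8a3 (0.88, 0.126), the Ryr1 modulator S100a1 (0.71, 0.127) and Atp2b3 (-0.65, 0.150). For aged GW8510 over aged vehicle they were Camk2d (-0.51), Cacng1 (-0.68), Dysf (-0.72) and Tmem38b (-0.65) beside Micu2 and Asph, each with an edgeR adjusted p of 0.934. Dysf had 59.4, 55.4 and 170 CPM in the aged vehicle libraries and 49.8, 64.7 and 57.7 CPM in the aged GW8510 libraries. Tmem38b had 74.2, 72.7 and 194 CPM in aged vehicle and 83.5, 71.6 and 62.2 CPM in aged GW8510. Aged vehicle library 4 thus held the high value of both genes. Camk2d, at 69.4, 61.3 and 64.8 CPM in aged vehicle, was not highest in that library.

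**Figure D5:**
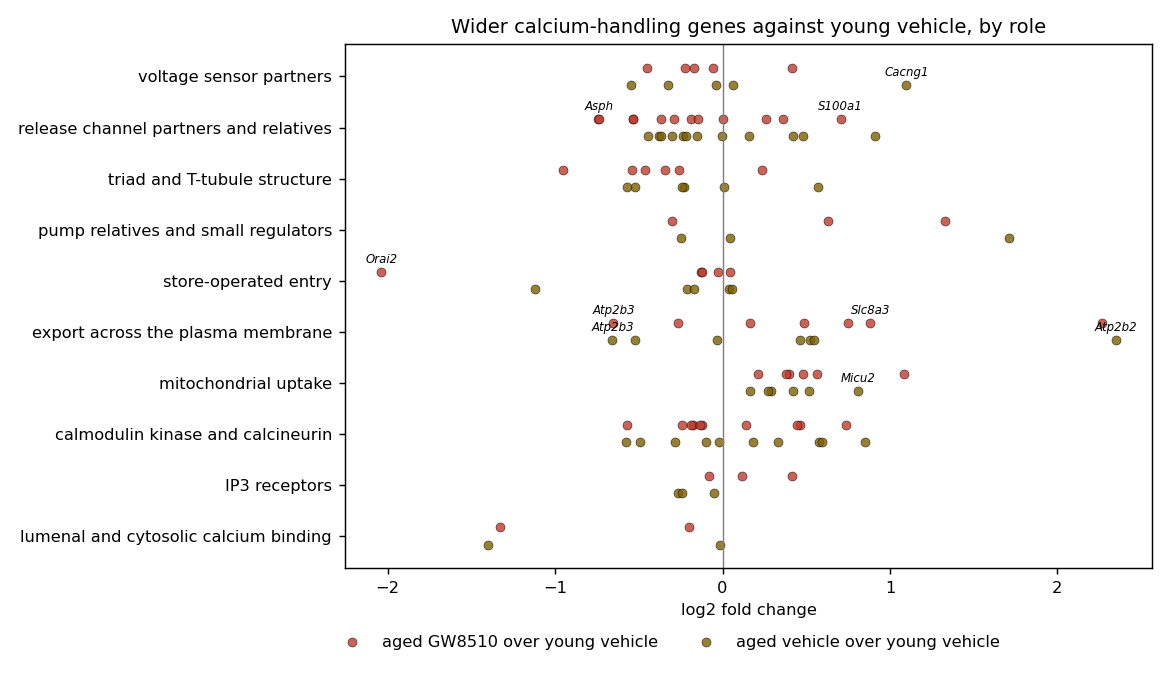
log2 fold changes of the 59 tested wider calcium-handling genes by role, aged GW8510 over young vehicle above and aged vehicle over young vehicle below in each row of points, with those genes of smallest p named that lie farther from 0. All points of mitochondrial uptake lie to the right of 0, and Orai2 (-2.04) and Atp2b2 (2.35) lie farthest out, at levels of at most 1.64 CPM.

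Across the 9 libraries, which share group and library effects, so that these values are descriptions, the log2 CPM of Casq1 followed that of Pvalb (Pearson r = 0.974, Spearman rho = 0.9) and Jph1 (r = 0.935, rho = 0.8). Sln followed Jsrp1 (r = 0.91, rho = 0.883). Aged vehicle library 4 lies at or near the end of each of these relations. Among all tested genes with a mean of at least 10 CPM, those with the highest r were Serpine2 (0.989), Phkg1 (0.986) and Cited4 (0.986) for Casq1, and Ak1 (0.992) and Slc37a4 (0.990) for Pvalb. For Sln they were Dazap1 (0.974), Thap7 (0.974) and Cyb5d2 (0.960), and for Jsrp1 they were Ost4 (0.989), Mrpl57 (0.982) and Rpl36al (0.982). Casq2 was most like Tmem204 (0.971), Ckmt2 (0.967) and Meox2 (0.967), and Jph1 most like Calm3 (0.967), Hps5 (0.965) and Ank1 (0.959). For Atp2a1 the 3 were Mical2 (0.949), Ampd1 (0.941) and Mlec (0.939), for Atp2a2 Aifm2 (0.949), Abcb8 (0.940) and Tie1 (0.927), for Ryr1 Txlnb (0.948), Smg6 (0.920) and Zdhhc21 (0.916), and for Cacna1s Esr1 (0.941), Cnot6 (0.935) and Mlst8 (0.924).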

How the data were processed

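RNA of mouse muscle was sequenced in 9 libraries, 3 per group. The authors deposited a table for each pair of groups with 55536 genes, which holds expected counts per gene and library, TPM per library and, per comparison, a ratio (fold), its log2 value, a p-value and its adjusted form. Per the file headers and the values the expected counts are not normalized (91.4% are whole numbers), and the authors' TPM values are scaled by length. The submitters' processing notes list the GRCm38 build and the tools RSEM, HISAT2, StringTie, CASAVA, edgeR and DESeq2 without version or role. Strand use and the gene annotation are not given in the sources used here. Gene coordinates came from GENCODE M21, which held all gene IDs. Counts of genes that overlap one of the 10 were at most 1.54% of that gene's lowest level.

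Counts were rounded to whole numbers and filtered with filterByExpr, which left 14384 genes. The test was the quasi-likelihood F test of edgeR 4.0.16 (R 4.3.3) with TMM factors, all 9 libraries in a single fit with 1 mean per group, two-sided, and a threshold of 0.05 on the Benjamini-Hochberg adjusted p over all genes. Standard errors were taken from the F statistic. The test was also tried on simulated counts with known changes. Alternatives were DESeq2 1.42.0, limma 3.58.1 (voom, and log2(TPM + 1) with a pseudocount of 1), other scalings and filters, fits with only the 6 libraries compared, a replicate block, and leaving out each library. Ratios were tested by exact permutation over libraries, where 3 against 3 cannot go below p = 0.1 and 6 against 3 cannot go below p = 0.0238.

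The 10 genes and the gene lists were chosen with earlier results of these data known. Of the wider calcium-handling list, the genes named are those that passed and, per comparison, the 6 with the smallest p. For each of the 10 genes, the 3 genes with the highest Pearson r over 9 libraries are named. Items these rules would name that are withheld are not reported here.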

Additional observations from a re-analysis of the deposited data

How the results depend on the processing

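None of the 10 genes passed in aged vehicle over young vehicle or in aged GW8510 over aged vehicle under any alternative run. In aged GW8510 over young vehicle, 1 passed (Casq1, without aged vehicle library 4, which is outside that comparison but shares its estimate of spread). With both aged groups against young vehicle, 1 passed in DESeq2 (Sln) and 1 without aged vehicle library 4 (Casq1), and leaving out each library in turn gave 0 to 1. Counts over all genes moved more. DESeq2 gave 974 for aged vehicle over young vehicle, 870 for aged GW8510 over young vehicle, 11 for aged GW8510 over aged vehicle and 1401 for both aged groups over young vehicle, against 175, 108, 0 and 526. No filter beyond 1 count gave 699, 553, 5 and 1012. Only the 6 libraries compared gave 50 and 469 against young vehicle, and limma on log2(TPM + 1) gave 237 for aged GW8510 over young vehicle. Leaving out each library in turn gave 19 to 148, 25 to 594, 0 to 2 and 73 to 775, with 19 and 73 found without young vehicle library 3, 25 when aged GW8510 library 3 was left out, 2 for aged vehicle library 3, and 594 and 775 for aged vehicle library 4. Wider list counts, 0, 0, 0 and 1, became 5, 6, 0 and 11 in DESeq2 and 2, 1, 0 and 3 with no filter, and for aged GW8510 over young vehicle 2 in limma on log2(TPM + 1) and 4 with only the 6 libraries. Leaving out libraries gave 0 to 1 for aged vehicle over young vehicle, 0 to 4 for aged GW8510 over young vehicle and 0 to 6 for both aged groups. The cause of these moves was not tested.

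The replicate block gave 5 genes for aged vehicle over young vehicle, 8 for aged GW8510 over young vehicle and 19 for both aged groups, where the wider list gave 0. Correlations of deviations between libraries of the same number ran from -0.209 to 0.138, so the numbers were not taken to pair the samples.

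Signs turned only among values that did not pass. For aged vehicle over young vehicle, limma on log2(TPM + 1) gave 0.0211 for Ryr1 and -0.193 for Casq2, limma-voom gave -0.114 for Casq2, and leaving out libraries gave -0.429 to 0.457 for Casq2. For aged GW8510 over young vehicle, Atp2a2 was 0.0299 with the replicate block and -0.284 to 0.128 without a library. For aged GW8510 over aged vehicle, library totals without TMM gave -0.0136 for Atp2a1, -0.0208 for Casq1, -0.0927 for Sln and -0.0356 for Pvalb, limma on log2(TPM + 1) gave -0.088 for Atp2a1, -0.358 for Sln and -0.0118 for Jph1, limma-voom gave -0.334 and the replicate block -0.409 for Sln. Pvalb was -0.0067 with DESeq2 size factors and in DESeq2, -0.0058 with no filter and -0.0028 with only the 6 libraries. Without a library, the same comparison ranged from -0.0493 to 0.168 for Atp2a1, -0.428 to 0.358 for Casq1, -1.41 to 0.684 for Sln, -0.458 to 0.321 for Pvalb, -0.0514 to 0.303 for Jph1 and -0.304 to 0.0532 for Jsrp1. The log2 ratio of Atp2a1 to Atp2a2 was 0.0177 in TPM for aged GW8510 minus young vehicle. Without a library it ranged from -0.0627 to 0.298 for aged vehicle minus young vehicle, -0.373 to 0.267 for aged GW8510 minus young vehicle, -0.50 to 0.14 for aged GW8510 minus aged vehicle and -0.0729 to 0.183 for both aged groups. For aged GW8510 minus aged vehicle, Casq1 to Casq2 ranged from -0.72 to 0.17 and Sln to pumps from -1.18 to 0.20. The cause of these turns was not tested.

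Precision is limited by 3 libraries per group and for Sln by counts of 39 to 274 per library, and the levels are of RNA, not protein.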
